A study of Mus musculus with 20 samples.

Results

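The comparison described here is that of spinal cord from transgenic mice with chronic experimental autoimmune encephalomyelitis (EAE), at 80 days post-induction (dpi), with cord from naive mice of the same transgenic line. It was taken as the contrast between these groups in a linear model. Of the 20 2-colour arrays of the study, 10 hold RNA of at least 1 of these groups, and 16 enter the model. A single array hybridised them directly, with animal 27 at 80 dpi against naive animal 8.

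All mice were female C57BL/6, given as 60 days old in the sample labels and as 2 to 4 months old in the design text. Transgenic (TG) mice carried GFAP-IkappaBalpha-dn, a dominant negative inhibitor of NF-kappaB driven by the promoter of Gfap, the intermediate filament gene of astrocytes, and were bred from heterozygous fathers. The other mice were wild type (WT) littermates. For EAE, mice received injections of 150 ug of the myelin oligodendrocyte glycoprotein peptide MOG(35-55) in complete Freund's adjuvant and 500 ng of pertussis toxin, and cords were taken at 10, 17 or 80 dpi. Naive mice form the unimmunised groups, so immunisation, adjuvant, toxin and the disease itself cannot be told apart. The labels give 60 days for naive and 80 dpi mice alike. Whether naive mice matched the 80 dpi mice in age at harvest could therefore not be checked, and a change with age cannot be told apart either. The labels name 3 animals in each of TG 80 dpi (21, 26 and 27), TG naive (5, 7 and 8), TG 17 dpi, WT 80 dpi and WT naive, but 2 in WT 17 dpi, where the design text gives 3. The promoter acts in astrocytes, whereas RNA came from whole cord.

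EAE is an autoimmune attack on central nervous system myelin led by T cells and carried out largely by monocyte-derived macrophages and microglia, the resident phagocytes. NF-kappaB is a family of transcription factors held in the cytoplasm by IkappaB proteins, and in astrocytes it drives chemokines, cytokines and adhesion molecules that bring leukocytes into the cord. In chronic lesions, phagocytes that have taken up myelin express lysosomal and lipid-handling genes, astrocytes are reactive, and fibroblast-like cells lay down matrix.

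The files state neither the direction nor the log base of the ratios. Values were read as log2 of TG over WT, EAE over naive, TG 80 dpi over TG 17 dpi and WT 17 dpi over WT 80 dpi, a reading chosen after values had been seen. The alternative, called title order here, takes the sample named first in each title (Cy5) as the numerator. The direct array and both TG arrays through 17 dpi run the same way in either reading, whereas the array of naive and 80 dpi WT cord, 3 of the 4 TG and WT arrays at 80 dpi and 1 of the 3 in naive cord turn over. The pooled log-likelihood was 242690 in the reading used and 184020 in title order. Every WT change, every comparison of TG with WT and the sign of list medians near 0 in TG therefore rest on the reading, and values in title order are given for the leading genes and lists. In the reading used, the direct array and the path between its animals through WT animals 14 and 4 differed by a median absolute 0.10 over 19083 genes. That is with the dye effect taken off, against 0.45 as deposited. TG 80 dpi animal 26 met WT animals in both dye orders, with deposited Ctsd ratios of -1.98 and -1.85. In title order 1 of these turns, which puts animal 26 above WT animal 13 and below WT animal 15. Each array held 43710 to 43894 values, and the number of arrays and their spread limit the precision. In the model, the SD of the deposited ratios was 1.07 on the array of TG 17 dpi animal 3 over WT 17 dpi animal 4. On the other arrays it ran from 0.286 to 0.73. A ratio carries no signal level, so the presence of cord markers could not be checked, and a lower ratio can come from fewer cells of a type or from less RNA per cell, which bulk tissue cannot tell apart.

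Between TG naive and TG 80 dpi cord, S100a8, Ogn and Mgp rose and no gene fell, out of 19087 genes tested by moderated limma statistics at a Benjamini-Hochberg adjusted p under 0.05. The called share was thus 0.0157% of genes higher and 0% lower. With so few calls, 0 called members of a list in TG cord does not set that list apart. At an unadjusted p under 0.05, 273 genes (1.43%) were higher and 315 (1.65%) lower. A further 7 genes had an adjusted p under 0.1: S100a9, Igf2, Serping1, Hbb-bt, Thbd and Vwf above 0, and Sgk1 below 0. In WT cord, the same model called 430 genes higher (2.25%) and 70 lower (0.367%) at 80 dpi, and 113 genes changed less or more negatively in TG than in WT by the test of the difference itself. The calls of S100a8, Ogn and Mgp were lost in title order (0 genes called), through WT arrays alone (0), and without TG 80 dpi animal 27, TG naive animal 5 or TG naive animal 8 (0 each); without TG 80 dpi animals 21 and 27, a choice made after seeing the data, 0 genes were called.

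**Figure D1:**
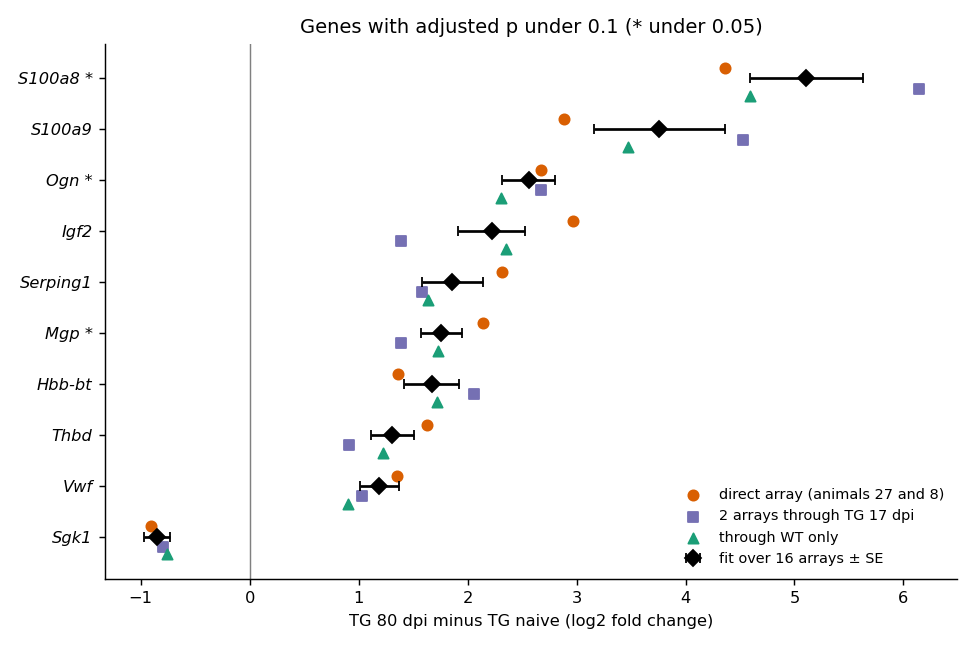
Log2 fold change from TG naive to TG 80 dpi for the 10 genes with an adjusted p under 0.1. Diamonds give the fit over 16 arrays with its standard error, circles the direct array, squares the sum of the 2 arrays through TG 17 dpi and triangles the fit without those 3 arrays; for all 10 genes the 3 routes lie on the same side of 0, from 4.36 to 6.14 for S100a8 and from -0.91 to -0.76 for Sgk1.

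S100a8 encodes a subunit of calprotectin, a calcium-binding alarmin stored in neutrophils, and S100a9 encodes its partner. On the direct array, the deposited log2 ratio of S100a8 was 4.11. The array of TG 17 dpi animal 1 over TG naive animal 5 gave 4.87, and that of TG 80 dpi animal 21 over the same TG 17 dpi animal 0.76. On the 4 arrays of TG over WT at 80 dpi it was 1.24 and 0.76 for animal 26, 0.37 for animal 21 and 0.01 for animal 27. With the dye effect taken off, animal 27 lay at -0.24 and the other arrays at 0.11 to 1.01, so no common side of WT holds for the 3 animals, and 3 of these 4 arrays turn in title order. The deposited ratios of the 3 TG naive animals over WT naive lay between -0.06 and 0.59. In the fit, S100a8 rose by 5.11 ± 0.52 (SE, 3 animals against 3; 34.4-fold; adjusted p = 0.00407). The estimates were 4.36 from the direct array after the dye effect was taken off, 6.14 through TG 17 dpi and 4.59 through WT. The same animals linked through WT animals 14 and 4 gave 3.62.

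S100a9 followed with 3.76 ± 0.60 (adjusted p = 0.0833) and a deposited direct ratio of 2.81. Of the 19 neutrophil and mast cell markers measured, 1 was called and 6 were higher at an unadjusted p under 0.05. Besides the calprotectin pair these were Ngp, a neutrophil granule protein, at 2.22 ± 0.45, Camp, the cathelicidin, at 1.99 ± 0.52, Retnlg at 1.50 ± 0.30 and Ltf, lactoferrin, at 0.61 ± 0.19, with adjusted p of 0.357, 0.736, 0.357 and 1. The list median was 0.12, against 0.00 for all genes, since the remaining members lay near 0, among them the mast cell genes Cma1 (-0.10 ± 0.11) and Fcer1a (-0.01 ± 0.04).

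The WT change from naive to 80 dpi was 4.93 ± 0.52 for S100a8 and 3.71 ± 0.60 for S100a9. The TG change minus the WT change was 0.18 (95% interval -1.09 to 1.45) for S100a8 and 0.05 (-1.44 to 1.53) for S100a9. In title order the WT changes were -0.74 and -0.03 and the differences 2.21 and 1.35, so the nearness of the genotypes rests on the reading. In the reading used, the difference for Ngp, Camp, Retnlg and Ltf was 0.12, -0.04, 0.24 and 0.10. The 95% interval of this difference ran from -0.98 to 1.22 for Ngp and from -1.32 to 1.25 for Camp, so the data do not show that the genotypes were alike. In TG cord S100a8 had already risen at 17 dpi, by 4.02 (adjusted p = 0.00194), and the step from 17 to 80 dpi was 1.08 (adjusted p = 0.229).

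S100a8 and S100a9 lie side by side on mouse chromosome 3 and moved together, so their promoters are shown with that of Ogn, which rose, and that of H2-Aa, an MHC class II gene described further on. The windows are the 250 bases before the start in RefSeq (build GRCm38.p6), 5′ to 3′ on the gene's strand. They were searched on both strands for a loose NF-kappaB motif (3 G, any 5 bases, 2 C) and for ATTGG, the core of the Y box of MHC class II promoters, and matches are in capitals. The sequences are those of S100a8 (chr3:90668821-90669070, plus strand), S100a9 (chr3:90695722-90695971, minus strand), Ogn (chr13:49607765-49608014, plus strand) and H2-Aa (chr17:34287824-34288073, minus strand).
S100a8: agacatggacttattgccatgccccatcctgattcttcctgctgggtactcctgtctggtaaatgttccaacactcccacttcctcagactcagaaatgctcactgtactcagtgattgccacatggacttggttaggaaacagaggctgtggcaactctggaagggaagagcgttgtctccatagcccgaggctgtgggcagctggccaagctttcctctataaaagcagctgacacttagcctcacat
S100a9: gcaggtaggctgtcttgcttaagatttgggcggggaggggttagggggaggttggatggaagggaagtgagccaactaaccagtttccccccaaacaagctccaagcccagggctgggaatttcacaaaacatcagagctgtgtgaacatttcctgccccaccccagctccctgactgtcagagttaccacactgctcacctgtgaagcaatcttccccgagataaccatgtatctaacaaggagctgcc
Ogn: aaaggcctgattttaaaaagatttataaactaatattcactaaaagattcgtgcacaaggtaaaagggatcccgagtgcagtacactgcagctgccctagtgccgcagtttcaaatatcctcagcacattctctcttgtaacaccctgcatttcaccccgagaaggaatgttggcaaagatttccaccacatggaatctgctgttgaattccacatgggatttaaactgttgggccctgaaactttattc
H2-Aa: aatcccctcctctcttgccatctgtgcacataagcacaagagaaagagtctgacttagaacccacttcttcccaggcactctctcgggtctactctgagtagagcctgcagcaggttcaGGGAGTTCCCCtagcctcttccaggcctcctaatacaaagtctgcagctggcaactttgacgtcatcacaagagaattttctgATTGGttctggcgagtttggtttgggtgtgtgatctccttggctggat
Neither motif occurs in the windows of S100a8, S100a9 and Ogn, which says only that these letters are absent there. H2-Aa holds overlapping NF-kappaB matches between bases -131 and -121 and a Y box core from -48 to -44. The NF-kappaB motif occurs in 45.8% of all 32851 promoters of the table, in 22 of the 26 matched to the NF-kappaB list, in 9 of the 18 matched to neutrophil and mast cell genes and in 5 of the 8 matched to MHC class II genes. ATTGG occurs in 33.8% of all promoters, in 7 of the 8 matched to MHC class II genes and in 6 of the 18 matched to neutrophil and mast cell genes.

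Ogn encodes osteoglycin, a small leucine-rich proteoglycan of connective tissue. Its deposited ratio was 2.82 on the direct array, 2.13 for TG 80 dpi animal 21 over TG 17 dpi animal 1 and 0.84 for that animal over TG naive animal 5. On the arrays of TG over WT at 80 dpi it ran from -0.87 to -0.47, with every TG animal below its WT partner in the reading used; 3 of the 4 arrays turn in title order. Ogn rose by 2.56 ± 0.24 (5.91-fold; adjusted p = 0.00396), with 2.67, 2.67 and 2.31 on the direct, 17 dpi and WT routes. Unlike S100a8, it stood at 0.29 in TG cord at 17 dpi (adjusted p = 0.476), and it rose by 2.27 from 17 to 80 dpi (adjusted p = 0.00176).

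Mgp, matrix Gla protein, is a secreted inhibitor of calcification made by vascular and mesenchymal cells. The direct array gave 2.06, and the arrays from TG naive to 17 dpi and from 17 to 80 dpi gave 0.21 and 1.02. Mgp rose by 1.76 ± 0.19 (3.39-fold; adjusted p = 0.00468) over naive cord, and by 1.22 over TG 17 dpi (adjusted p = 0.00668). Its WT change was 2.79 ± 0.19, and the TG change was smaller by 1.03 (95% interval of the difference -1.49 to -0.56; adjusted p = 0.0641). For Ogn the WT change was 3.07 ± 0.24 and the difference -0.51 (-1.11 to 0.09). In title order the WT changes of Mgp and Ogn were -0.62 and 0.47 and the differences turned to 1.41 and 1.23. Mgp was also lost as a call without WT 80 dpi animal 14 or WT naive animal 4, with values of 1.73 and 1.74.

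Of the 41 extracellular matrix and scar genes measured, Mgp was the called member, and 8 were higher and 0 lower at an unadjusted p under 0.05. These included Igfbp6, an IGF-binding protein, at 1.02 ± 0.25, Dcn, the collagen-binding proteoglycan decorin, at 0.96 ± 0.24, and the fibrillar collagen chain Col1a2 at 0.55 ± 0.11 (adjusted p of 0.623, 0.683 and 0.313). The features behind these averages disagreed: those of Col1a2 stood at 1.04 ± 0.08, called in the fit by feature (adjusted p = 0.00161), and at 0.07 ± 0.19, and those of Dcn at 1.36 and 0.55. The list median was 0.09 in TG and 0.39 in WT, where 14 members were called higher. The change was smaller in TG by the test of the difference for 4 members, Col1a2 (-0.71), Col6a1 (-0.86), Postn (-0.55) and Igfbp5 (-0.48). For Dcn, the TG change minus the WT change was -1.26 and 0.48 by feature.

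Igf2, insulin-like growth factor 2, which meninges and choroid plexus make in the adult nervous system, had a deposited ratio of 3.19 on the direct array and 2.51 for TG 80 over 17 dpi. Its change was 2.22 ± 0.31 (adjusted p = 0.0507), its routes spread from 1.39 to 2.97, and it rose by 2.73 over TG 17 dpi (adjusted p = 0.00191). Endothelial genes were near the threshold too. Vwf, von Willebrand factor, stood at 1.19 ± 0.18 (adjusted p = 0.0731) as the average of 3 features at 0.19, 1.22 and 2.15, the last called in the fit by feature (adjusted p = 0.0213). Thbd, the endothelial receptor thrombomodulin, stood at 1.31 ± 0.20 (adjusted p = 0.0749). Of 33 meningeal and vessel genes, 0 were called and 6 were higher at an unadjusted p under 0.05, among them the tight junction gene Cldn5 (0.41 ± 0.16), the mesenchymal transcription factor gene Foxc1 (0.85 ± 0.23) and the meningeal transporter Slc6a13 (0.36 ± 0.12). The list median was 0.11 in TG and 0.12 in WT cord, and for 0 of the 33 was the difference between genotypes called. Pf4, a platelet chemokine gene also expressed by border-associated macrophages, stood at 0.96 ± 0.20 in TG and 1.04 ± 0.20 in WT (adjusted p = 0.365 in TG).

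**Figure D2:**
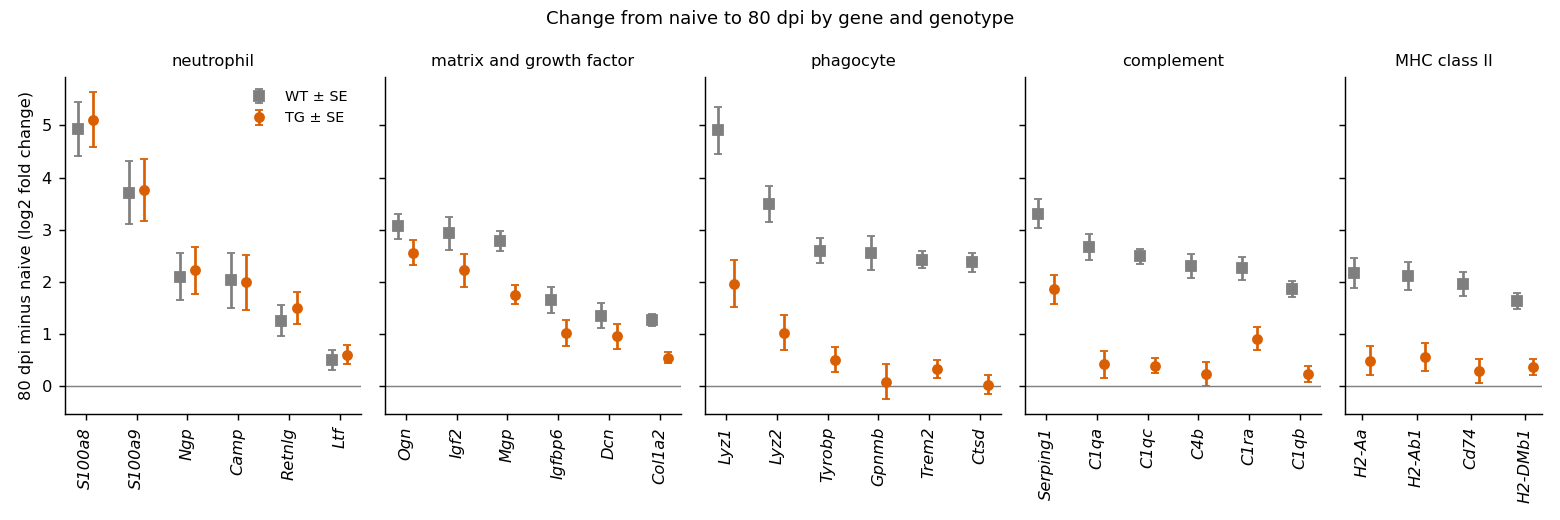
Log2 fold change from naive to 80 dpi with its standard error for named genes of 5 groups, in WT (squares) and TG (circles) cord. In the reading used, neutrophil genes lie at like values in both genotypes (S100a8 4.93 and 5.11). The averages of the 6 matrix and growth factor genes lie lower in TG, with the difference called for Col1a2 alone. Phagocyte, complement and MHC class II genes lie between 0.03 and 1.97 in TG against 1.63 to 4.91 in WT. In title order the WT change of S100a8 is -0.74 and that of Gpnmb -1.63.

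The change from naive to 80 dpi differed between the genotypes for 115 genes. It was lower in TG for 113 (0.592%) and higher for 2 (0.0105%). The 113 had a median change of 0.20 in TG (range -0.42 to 1.97) and of 1.07 in WT (range 0.22 to 4.91), and 112 of them were called higher in WT. TG and WT differed by a median of 0.03 over these genes in naive cord, with 0 called, and by -0.91 at 80 dpi, with 113 called. In title order 0 genes were called and 0 of the 113 lay below 0, so the direction of this difference rests on the reading of the ratios. The size of the ratios does not: on the array of WT animal 14 over WT naive animal 4 the deposited ratio of Gpnmb was 2.32, in either direction, and on the direct TG array it was 0.06. The number of calls ranged from 6 without TG naive animal 5 to 1081 without WT 17 dpi animal 4.

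Of 28 disease-associated phagocyte genes, 22 were called higher in WT cord at 80 dpi and 0 in TG cord, and 14 had a smaller change in TG. The list median was 0.18 in TG and 1.22 in WT, and in title order it was -0.15 and -1.28. Without TG 80 dpi animals 21 and 27 the TG median was 0.47, with Gpnmb at 1.02, Trem2 at 1.09 and Tyrobp at 1.02. Gpnmb, a glycoprotein of lipid-laden phagocytes, changed by 0.09 ± 0.33 in TG and 2.56 ± 0.33 in WT, a difference of -2.48 (adjusted p = 0.0103). Its 2 features disagreed, with differences of -4.27 (adjusted p = 0.00148) and -0.68 (adjusted p = 1). Ctsd, the lysosomal protease cathepsin D, stood at 0.03 ± 0.18 and 2.38 ± 0.18, with a difference of -2.35 (adjusted p = 6.28e-04). The routes of the TG change disagreed. On the direct, 17 dpi and WT routes, Gpnmb stood at -0.16, -0.28 and 1.11 and Ctsd at 0.08, -0.28 and 0.53. The list medians on these routes were 0.16, 0.07 and 0.45. On the 4 arrays of TG over WT at 80 dpi, the deposited ratios of Ctsd were -1.98, -1.88, -1.85 and -2.28. Those of Gpnmb ran from -2.73 to -1.66. The TG animal was thus lower on each in the reading used, but 3 of the 4 arrays turn in title order. For Trem2, a lipid-sensing receptor, and its adaptor Tyrobp the differences were -2.09 and -2.09 (adjusted p of 0.00125 and 0.00444), and for cathepsin Z, Ctsz, -1.98.

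The lysozyme genes differed as well. Lyz1 had a deposited ratio of 2.54 on the direct TG array and of 5.51 on the WT array. Its fitted change was 1.97 ± 0.45 in TG (adjusted p = 0.478) and 4.91 ± 0.45 in WT, with a difference of -2.93 (adjusted p = 0.024). Lyz2 stood at 1.03 ± 0.34 and 3.49 ± 0.34, with a difference of -2.46 (adjusted p = 0.0128). Lyz1 and Lyz2 are close copies, so their probes can share signal. Monocyte and neutrophil lineages both express lysozyme. Of 37 macrophage and monocyte markers, 0 were called in TG, 19 were called higher in WT and 6 had a smaller change in TG. The medians were 0.19 in TG and 0.84 in WT, and in title order -0.29 and -1.04. These 6 genes include Aif1, which marks microglia and macrophages, with a difference of -1.17. The mannose receptor gene Mrc1 stood at 0.85 ± 0.30 in TG and 1.52 ± 0.30 in WT (difference adjusted p = 0.982). Over 16 homeostatic microglia genes the median was 0.07 in TG and 0.28 in WT, and 2 differed.

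**Figure D3:**
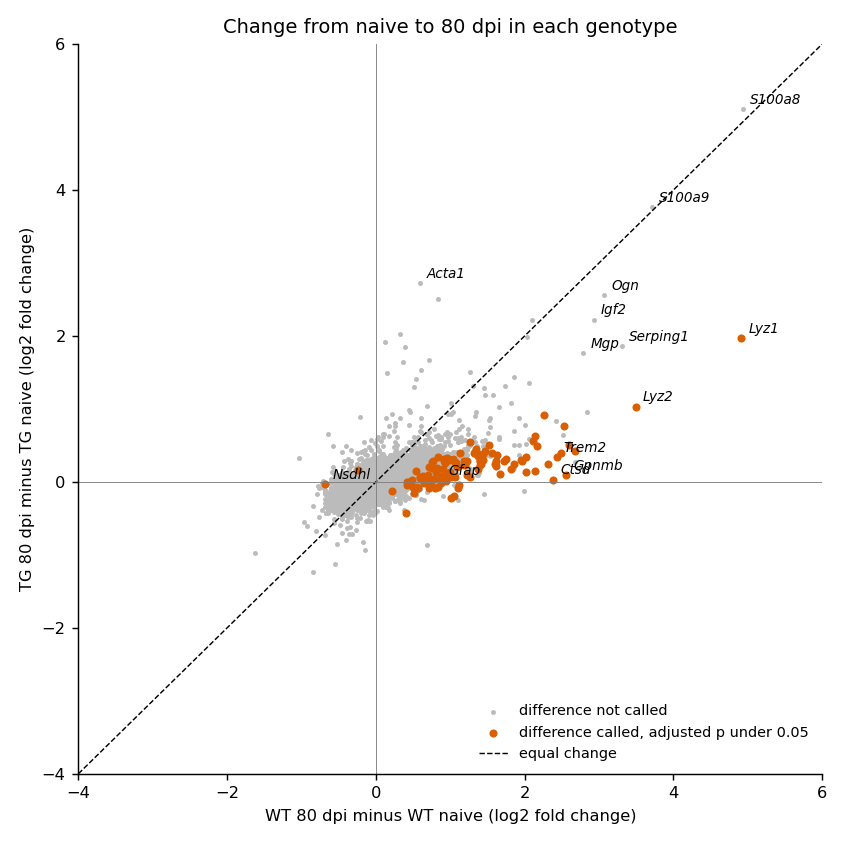
Log2 fold change from naive to 80 dpi of all 19087 genes, in WT (horizontal) and TG cord (vertical); the dashed line marks equal change. The 115 genes whose difference was called are in orange, 113 of them at 0.22 to 4.91 in WT and -0.42 to 1.97 in TG in the reading used (title order turns their difference), while S100a8 (4.93 and 5.11) and S100a9 (3.71 and 3.76) lie by the line in that reading.

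Complement genes split within the list. Serping1, the C1 inhibitor, had a deposited direct ratio of 2.54 and stood at 1.86 ± 0.28 in TG cord (adjusted p = 0.0659), with 3.31 ± 0.28 in WT and a difference of -1.44 (adjusted p = 0.0853). The C1q chains C1qa, C1qb and C1qc, which start the classical pathway, changed in TG by 0.42 ± 0.25, 0.24 ± 0.15 and 0.40 ± 0.14, and the WT changes were larger by 2.25, 1.62 and 2.09 (so differences of -2.25, -1.62 and -2.09, with adjusted p of 0.00399, 0.00159 and 3.18e-04). C4b and the protease C1ra also differed, by -2.07 and -1.36. In all, 5 of 15 complement genes had a smaller change in TG and 0 were called in TG cord itself.

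The MHC genes present antigen, class II to helper T cells and class I to cytotoxic T cells. Of 11 class II genes, 0 were called in TG, 5 were called higher in WT, and the differences were called for H2-Aa (-1.68), H2-Ab1 (-1.55), H2-DMb1 (-1.27) and the invariant chain Cd74 (-1.66). H2-Aa, whose promoter is shown above, stood at 0.49 ± 0.28 in TG and 2.17 ± 0.28 in WT, and H2-Ab1 at 0.56 ± 0.27 and 2.11 ± 0.27. Among the 4 features of H2-Ab1 the difference ran from -1.99 (adjusted p = 0.0197) to -1.21 (adjusted p = 0.246). On the direct array the deposited ratios of H2-Ab1, H2-Aa and Cd74 were 1.00, 0.72 and 0.71, above the fitted values of 0.56, 0.49 and 0.29. Of 23 class I and peptide loading genes, 0 were called in TG and 14 in WT, with differences called for 3, among them H2-Q10 (-0.62) and H2-Q1 (-0.48). The 4 features of H2-Q10 spread from -1.17 to -0.00, and those of H2-Q1 stood at -0.98 (adjusted p = 0.00488 in the fit by feature) and 0.01. The medians in TG were 0.21 for class II and 0.19 for class I, and in WT 0.77 and 0.85. In title order they were -0.06 and -0.16 in TG and -0.79 and -0.96 in WT. With 1 animal left out, the TG median ran from 0.06 (without WT 17 dpi animal 1) to 0.31 (without TG naive animal 8) for class II, and from 0.13 (without WT 17 dpi animal 1) to 0.27 (without TG naive animal 5) for class I.

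Interferon-induced genes had a median of 0.17 in TG (0 of 36 called) and 0.50 in WT (2 called), against -0.34 and -0.92 in title order. Irf8, a transcription factor of the myeloid lineage, differed by -1.11 (adjusted p = 0.00273), whereas the GTPase gene Gbp4 stood at 0.66 ± 0.24 in TG and 0.68 ± 0.24 in WT. Among 27 chemokines, Ccl3, which recruits monocytes, changed by 0.77 ± 0.22 in TG and by 2.53 ± 0.22 in WT (difference adjusted p = 0.00747), and Cxcl12, a stromal chemokine, by 0.41 ± 0.14 and 1.09 ± 0.14 (difference adjusted p = 0.0957), the average of features that differed by -1.37 and 0.00. The interferon gamma receptor chain Ifngr1 differed by -0.99, as the called member of 38 cytokine and receptor genes. The TNF receptor gene Tnfrsf1a stood at 0.53 ± 0.18 in TG and 1.28 ± 0.18 in WT (difference adjusted p = 0.237).

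No lymphocyte marker was called in TG cord, where 0.0157% of all genes were called higher and 0% lower. Of 31 T cell markers 0 were called in TG or WT, with medians of 0.05 and 0.11. Cd3d and Cd3e, chains of the T cell receptor complex, stood at 0.12 ± 0.24 and 0.09 ± 0.05 in TG. The checkpoint receptor Ctla4 stood at 0.12 ± 0.08. Over 25 B and plasma cell markers the median was 0.01 in TG and 0.14 in WT. The differences were called for the antibody joining chain Jchain (0.08 ± 0.14 in TG, 0.93 ± 0.14 in WT) and for Blnk, an adaptor that myeloid cells also express (0.28 ± 0.18 and 1.72 ± 0.18). Cd79b and Blk stood at 0.27 ± 0.11 and -0.09 ± 0.05 in TG.

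**Figure D4:**
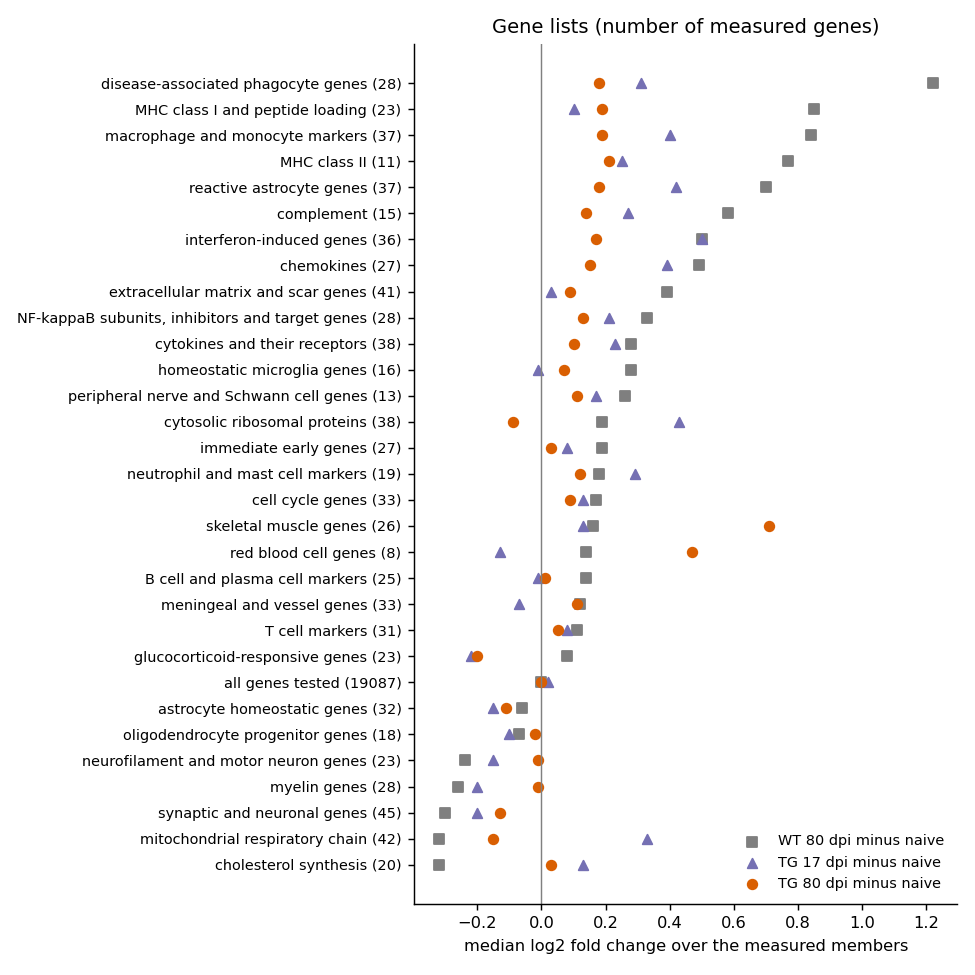
Median log2 fold change over the measured members of each gene list, for WT 80 dpi (squares), TG 17 dpi (triangles) and TG 80 dpi (circles), each minus naive cord of the same genotype. In TG at 80 dpi the immune lists lie between 0.01 and 0.21 in the reading used and between -0.34 and 0.11 in title order, and in the reading used skeletal muscle (0.71) and red blood cell genes (0.47) lie highest.

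Gfap, whose promoter drives the transgene, changed by 0.02 ± 0.12 in TG cord (95% interval -0.24 to 0.27) and by 0.88 ± 0.12 in WT. The deposited ratio was 0.14 on the direct TG array, 1.09 on the WT array and between -0.89 and -0.70 on the 4 arrays of TG over WT at 80 dpi. The difference of -0.86 was called (adjusted p = 0.0113), and TG and WT naive cord differed by 0.02. Its features gave differences of -0.84, -1.05 and -0.70, none called in the fit by feature (adjusted p of 0.172, 0.338 and 0.473). In TG cord Gfap had risen at 17 dpi by 0.54 (adjusted p = 0.0142) and fell by 0.52 from 17 to 80 dpi (adjusted p = 0.0232). Of 37 reactive astrocyte genes, 0 were called in TG and 10 were called higher in WT, with medians of 0.18 and 0.70, against -0.02 and -0.65 in title order. Vim, an intermediate filament gene, stood at 0.49 ± 0.17 in TG and 1.36 ± 0.17 in WT, and the acute-phase serpin Serpina3n at -0.12 ± 0.48 and 1.99 ± 0.48 (difference adjusted p of 0.0898 and 0.166). The features of Vim differed by -1.73 (adjusted p = 0.0434) and -0.03. The median over 32 astrocyte homeostatic genes was -0.11, with differences called for the metal-binding metallothionein Mt2 (-0.82) and the Id family regulator Id3 (-0.73).

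Nfkbia, the gene for IkappaBalpha and itself an NF-kappaB target, had 1 feature here, and whether it reads the transgene is not given in the sources used here, so it does not check the genotype labels. Its deposited ratios of TG over WT were 0.06, 0.47 and -0.04 in naive cord and lay between -0.62 and -0.41 at 80 dpi, and the direct array gave -0.99. The fitted change in TG was -0.94 ± 0.44 (adjusted p = 1), and the difference from the WT change was -0.79 (95% interval -1.89 to 0.30). Over 28 NF-kappaB subunits, inhibitors and target genes the median was 0.13 in TG and 0.33 in WT, with 0 called in TG. The early response gene Ier3 stood at 0.70 ± 0.17 and the cyclooxygenase gene Ptgs2 at 0.93 ± 0.35 in TG (adjusted p of 0.623 and 1), and their WT changes were 0.59 and 1.01.

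No myelin, neuronal or respiratory chain gene was called in TG cord. That is near the share over all genes, 0.0157% higher and 0% lower, and does not show that these genes were spared. The median over 28 myelin genes was -0.01 in TG and -0.26 in WT, and the myelin basic protein gene Mbp stood at -0.05 ± 0.21. Among 18 oligodendrocyte progenitor genes (median -0.02), the sialidase gene Neu4 stood at -0.43 ± 0.12 (adjusted p = 0.808) in TG and at -0.44 in WT. Over 45 synaptic and neuronal genes the median was -0.13, with 0 called. The neurofilament light chain gene Nefl stood at -0.01 ± 0.32 and the synaptic gene Snap25 at -0.06 ± 0.30. Over 23 neurofilament and motor neuron genes the median was -0.01. Respiratory chain genes had a median of -0.15 over 42 members in TG and -0.32 in WT. In the list of 13 peripheral nerve and Schwann cell genes the median was 0.11. The largest statistics were those of Sox2 (0.54 ± 0.12) and Pmp22 (0.40 ± 0.10, with features at 0.07 and 0.74). RNA of whole cord does not tell which cells these transcripts came from.

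Cholesterol synthesis genes had medians of 0.03 in TG and -0.32 in WT over 20 members, of which 4 were called lower in WT and 0 in TG. They gave both genes with a higher change in TG than in WT. Nsdhl, a sterol dehydrogenase gene, changed by -0.03 ± 0.08 in TG and by -0.68 ± 0.08 in WT (difference 0.65, adjusted p = 0.00917). Msmo1, the sterol methyl oxidase gene, changed by 0.16 ± 0.07 and -0.24 ± 0.07 (difference 0.39, adjusted p = 0.0373). The features of Msmo1 differed by 0.01 and 0.77, and neither was called in the fit by feature. Hmgcs1, which makes the substrate of the rate-limiting step, stood at 0.33 ± 0.29 and -1.04 ± 0.29 (difference adjusted p = 0.131). In title order the median difference of the list was -0.19 instead of 0.39.

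Glucocorticoid-responsive genes lay on the lower side. Of 23 measured, 8 were lower and 0 higher at an unadjusted p under 0.05, 0 were called, and the median was -0.20 (0.08 in WT; -0.10 and -0.19 in title order). Sgk1, a salt- and stress-regulated kinase gene, had deposited ratios of -0.92 on the direct array, -0.27 for TG 17 dpi over naive and -0.56 for TG 80 over 17 dpi. All routes from naive to 80 dpi lay below 0 (-0.91, -0.80 and -0.76), and the fit gave -0.85 ± 0.12 (adjusted p = 0.0542), the average of features at -1.67 and -0.03. In WT it changed by -0.52 ± 0.12 (adjusted p = 0.0436). The arrestin-domain gene Arrdc2 stood at -1.24 ± 0.27 in TG and the mTOR inhibitor gene Ddit4 at -0.63 ± 0.14 (adjusted p of 0.393 each), and Tsc22d3, which encodes the glucocorticoid-induced leucine zipper, at -0.37 ± 0.09. Mt2 and Mt1, which belong to this list too, stood at -0.42 ± 0.13 and -0.29 ± 0.12 in TG, against 0.40 and 0.18 in WT.

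From 17 to 80 dpi in TG cord, 1276 genes rose (6.69%) and 848 fell (4.44%), a comparison that has 1 direct array. From naive to 17 dpi, 1439 genes had been called higher (7.54%) and 2096 lower (11.0%). Both comparisons share the TG 17 dpi animals. The count of 2124 for 17 to 80 dpi became 8 without TG 80 dpi animal 21, 7433 without WT 17 dpi animal 4 and 0 in title order. Acta1 (2.84), Igf2 (2.73), Ogn (2.27), Meg3 (2.18), Ckm (1.79) and Atp2a1 (1.77) rose most among named genes. The T cell and monocyte attracting chemokines Cxcl10 and Ccl2 fell by 2.62 and 1.60, followed by Pfdn4, Rpl35, Hcar2 and Rps27l, which fell by 1.39, 1.31, 1.31 and 1.30. At 80 dpi Cxcl10 stood at 0.37 ± 0.71 and Ccl2 at -0.00 ± 0.44 relative to naive TG cord. Meg3, a long noncoding RNA, had deposited ratios of -2.46 and 2.47 on the arrays of TG 17 dpi animal 1 over naive and of TG 80 dpi animal 21 over that animal, and of 0.32 on the direct array. Over 38 ribosomal protein genes, the medians on those arrays were 0.50 and -0.61 after the dye effect was taken off, and their part in the result was not tested. In the comparison of 80 dpi with naive, their median was -0.09.

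Skeletal muscle genes had the highest list median, 0.71 in TG (25 of 26 above 0) against 0.16 in WT, and 0.48 and 0.62 in title order. None was called, but 14 of 26 were higher at an unadjusted p under 0.05, led by Acta1, skeletal actin, at 2.72 ± 0.63 (adjusted p = 0.492), Mylpf, a fast myosin light chain, at 2.51 ± 0.68, the troponin gene Tnnt3 at 1.85 ± 0.49 (features at 3.01 and 0.68) and the muscle creatine kinase gene Ckm at 1.49 ± 0.47. After the dye effect was taken off, the list median was 0.87 and 0.81 on the arrays of TG 80 dpi animal 27 and 1.06 and 0.71 on those of animal 21. On the arrays of animal 26 it was 0.12 and -0.22. The high values thus sat with animals 21 and 27, and without them the list median was 0.00. Acta1 was 3.31 on the direct array and between -0.63 and 0.53 for animal 26. S100a8, Ogn and Mgp stood at 5.53, 2.65 and 1.44 without animals 21 and 27, with adjusted p of 1 each in a fit that keeps 1 TG 80 dpi animal and assumes that it varies like the other groups.

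**Figure D5:**
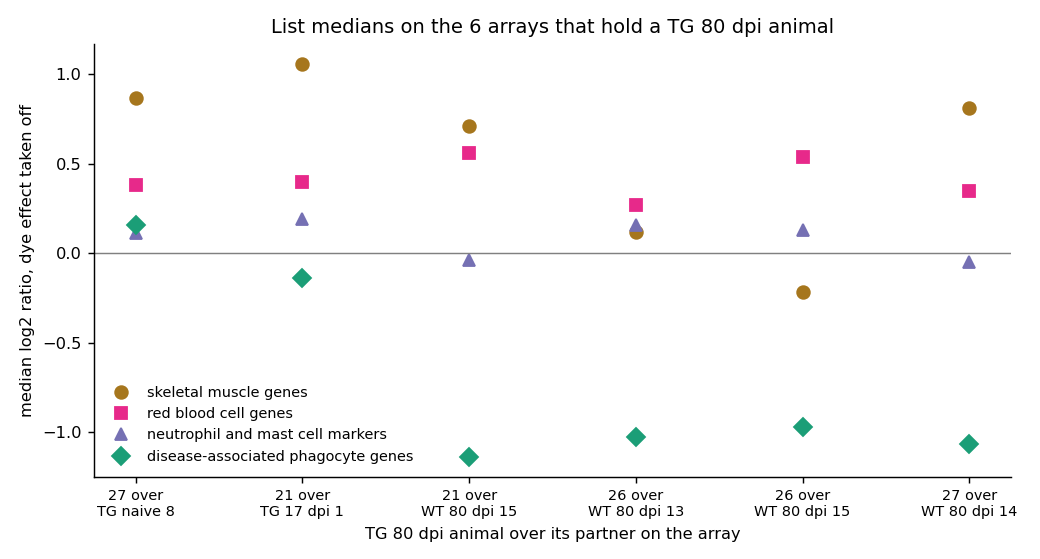
Median log2 ratio, with the fitted dye effect taken off, of 4 gene lists on the 6 arrays that hold a TG 80 dpi animal, named under the axis with the animal it was paired with. Skeletal muscle genes lie at 0.71 to 1.06 for animals 21 and 27 and at -0.22 and 0.12 for animal 26; phagocyte genes lie at -1.14 to -0.97 against WT 80 dpi animals and at 0.16 and -0.14 against TG animals.

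Red blood cell genes were also on the higher side, with a median of 0.47 over 8 genes in TG and 0.14 in WT, and 0.18 and 0.36 in title order. The beta globin gene Hbb-bt stood at 1.67 ± 0.25 (adjusted p = 0.0659), the alpha globin genes Hba-a1 and Hba-a2 at 1.53 ± 0.31 and 0.93 ± 0.16, and Alas2, the haem synthesis enzyme of red cell precursors, at 0.77 ± 0.16. Globin genes are close copies, so their probes can share signal. In the reading used, the list median lay above 0 on all 6 arrays with a TG 80 dpi animal (0.27 to 0.56). Blood also holds neutrophils, and the part of blood RNA in the values of S100a8 and S100a9 was not tested.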

How the data were processed

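RNA of mouse spinal cord was measured on 20 2-colour arrays. The authors deposited 1 log ratio per feature, read here as log2. Per the labels' design text, ratios were loess-normalized within arrays, and quantile normalization in limma followed across arrays. Background correction: not given in the sources used here. Of 44290 features, 32042 carried 1 gene symbol in GEO's platform annotation, 47 several and 12201 none, and features of a gene were averaged, giving 19087 genes. Genes with values on at least 12 of 16 arrays were fitted (R 4.3.3, limma 3.58.1) by generalised least squares with a coefficient for each of 6 groups, a dye effect per gene and a shared animal variance (0.539 of the array variance, estimated over genes with complete values), then moderated by empirical Bayes (10 residual and 1.95 prior degrees of freedom). The 4 arrays of 10 dpi animals share no group with the rest and were left out. The method was tested on simulated data. Replicates are animals as the labels name them.

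Members, gene lists and the direction of the ratios were chosen with earlier results of these data known. Named were the called genes with the same sign on 3 routes, the called or else the 2 leading members of each list, the 6 highest and 6 lowest called genes of the other comparisons with clone and RIKEN names skipped, Nfkbia and Gfap. Genes with an adjusted p under 0.1 in the main comparison were named after their values were seen, and so were S100a9, Ngp, Retnlg, Camp, Ltf, Cma1, Fcer1a, Trem2, Tyrobp, Ctsz, Aif1, Cd74, H2-Aa, C1qb, C4b, Jchain, Blnk, Cd3d, Serpina3n, Col1a2, Col6a1, Postn, Igfbp5, Dcn, Igfbp6, Pf4, Slc6a13, Cldn5, Ddit4, Tsc22d3, Mt1, Hmgcs1, Hba-a1, Alas2, Mylpf, Tnnt3, Mbp, Nefl and Snap25.

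Alternatives were title order, no dye effect, no animal correlation, probe-level fit, equal array scale, array weights, all 20 arrays, complete values, single routes and each animal left out.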

Additional observations from a re-analysis of the deposited data

Results flagged for a closer look

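The change from naive to 80 dpi differed between TG and WT cord, by the test of the difference, for 115 genes. Among phagocyte genes, the log2 difference (TG change minus WT change) was -2.93 for Lyz1, -2.48 for Gpnmb, -2.46 for Lyz2, -2.35 for Ctsd, -2.09 for Trem2, -2.09 for Tyrobp, -1.98 for Ctsz and -1.17 for Aif1. Among complement genes it was -2.25 for C1qa, -2.09 for C1qc, -2.07 for C4b, -1.62 for C1qb and -1.36 for C1ra. For antigen presentation it was -1.68 for H2-Aa, -1.66 for Cd74, -1.55 for H2-Ab1, -1.27 for H2-DMb1, -0.62 for H2-Q10 and -0.48 for H2-Q1. Signalling and lymphoid genes gave -1.76 for Ccl3, -1.44 for Blnk, -1.11 for Irf8, -0.99 for Ifngr1 and -0.85 for Jchain. Astrocyte and matrix genes gave -0.86 for Gfap, -0.82 for Mt2, -0.73 for Id3 and -0.71 for Col1a2. The sterol genes Nsdhl and Msmo1 went the other way, at 0.65 and 0.39. In title order the signs of all these differences turn (for Gpnmb 1.66, for Gfap 0.72, for Nsdhl -0.35, for Msmo1 -0.11), with 0 genes called. The features of Gpnmb, H2-Q10, H2-Q1, Col1a2 and Msmo1 disagreed, as given above, and no single feature of Gfap was called.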

How the results depend on the processing

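The calls rest on the direction of the ratios, since in title order 0 genes were called in each of the 3 comparisons. Title order also had the lower pooled log-likelihood (184020 against 242690), so its 0 calls come from the poorer fit. For TG 80 dpi minus TG naive, with 3 calls, the count was 10 without a dye effect, 8 without the animal correlation, 6 by probe (counting features), 7 with arrays scaled alike, 399 with array weights, 8 with all 20 arrays, 0 through WT arrays alone and 0 without TG 80 dpi animals 21 and 27 (added after seeing the data), and 0 to 43 with 1 animal left out. For the difference between TG and WT, with 115 calls, it was 295 without the animal correlation, 181 by probe, 1381 with array weights and 0 without animals 21 and 27, and 6 to 1081 with 1 animal left out. For TG 80 dpi minus TG 17 dpi, with 2124 calls, it was 261 without a dye effect, 3324 without the animal correlation, 5362 by probe, 636 with arrays scaled alike, 7383 with array weights and 1 without animals 21 and 27, and 8 to 7433 with 1 animal left out. The highest counts with 1 animal left out, 43, 1081 and 7433, came without WT 17 dpi animal 4. That animal shares the array with the widest ratios (SD 1.07) with TG 17 dpi animal 3, without which the counts were 22, 507 and 6333. The cause of these shifts was not tested. S100a8, Ogn and Mgp stayed above 0 under all alternatives (lowest in title order, at 1.48, 1.70 and 0.79). With 1 animal left out, TG list medians ran from 0.05 to 0.24 for interferon-induced genes, 0.09 to 0.27 for macrophage, 0.05 to 0.21 for reactive astrocyte, 0.15 to 0.22 for phagocyte, 0.49 to 0.91 for skeletal muscle and -0.26 to -0.09 for glucocorticoid-responsive genes. Without animals 21 and 27 the interferon and reactive astrocyte medians were -0.12 and -0.08. No paired analysis was possible because the replicate numbers were given in accession order; animals, which the titles number, entered the fit as a random effect.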
